A study of Homo sapiens with 8 samples.

Results

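Before a cell divides, each duplicated chromosome must be tied to the spindle and both copies must be parted evenly. The centromere, a chromatin region marked by the histone variant CENPA, carries the kinetochore, a layered protein machine that grips spindle microtubules, and the spindle assembly checkpoint delays separation until all kinetochores are attached. Separation begins when the anaphase-promoting complex is switched on by CDC20, and the cleavage furrow then splits the cell. Most genes of this machinery are transcribed mainly in G2 and mitosis, through promoter elements bound by the MuvB complexes (DREAM in resting or arrested cells, MYBL2 and FOXM1 in dividing ones), and p53 is known to lower them through the CDK inhibitor p21.

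The transcripts of 58 such genes, taken by symbol out of 58302 genes in the table, were compared in HCT116 p53+/+ cells. This is an established human colon cancer line whose p53 genes are intact. The 58 were chosen with earlier results of these data known, so their counts beside all tested genes are descriptive. Cells had been given 1 µM MANIO, a compound known here by its code name only, or its solvent DMSO, and were collected 24 hours later. Each group held 4 cultures labelled as biological replicates, all of 1 line and 1 dose, and no untreated cells were analysed here. The comparison asks what the compound does to the RNA of cells that hold p53. All 58 genes were found once in the table, and all 58 passed the filter on low counts, with at least 410 reads in every library.

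Total counts per library ranged from 27945196 to 32509020, and the difference between groups did not pass the test (exact two-sided permutation p = 0.171, over 70 assignments). The labels' protocol gives fewer raw reads per sample than these totals, for a reason not known here, so the totals may not equal the number of fragments sequenced. CDKN1A, the p21 gene, rose from 260 ± 24.0 to 1402 ± 97.1 CPM, a count scaled to a common library total, and MDM2 from 199 ± 5.99 to 715 ± 52.7 CPM (SD, n = 4 each; edgeR adjusted p = 3.4e-12 and 6.4e-12). Both are known targets of p53, and every MANIO library lay above every DMSO library for both. Of 11 epithelial markers 6 passed the filter, among them EPCAM and KRT8, while VIL1, CDX1, LGALS4, CEACAM5 and GPA33 stayed at or under 0.335 CPM in every library. Of 12 markers of immune, endothelial and fibroblast cells 9 failed the filter and stayed at or under 0.253 CPM, and none was at 0 in all libraries. The summed level of the 12 was 22.6 to 27.8 CPM in DMSO and 40.1 to 48.3 CPM in MANIO, most of it COL1A1 (22.9 ± 2.21 and 42.2 ± 3.44 CPM), and its part in the results was not tested. DMSO replicate 1 stood apart from the other DMSO libraries, with 20.7 to 24.4 times the sampling noise between them (chi-square per degree of freedom) against 3.60 to 10.3 among the other 3.

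In MANIO, transcripts of 46 of the 58 genes fell, 0 rose and 12 did not pass the test (edgeR quasi-likelihood test, adjusted p under 0.05 over all 15712 genes tested). Among all tested genes 26.8% were called lower and 27.8% higher, together 54.6%. The falls were small. Their log2 fold changes ran from -0.18 for the spindle gene SPAG5 to -0.86 for SGO2, which guards centromeric cohesion, or 1.13-fold to 1.81-fold lower. Only 7 genes fell by at least 1.5-fold, namely SGO2, DLGAP5, CENPA, SPC25, NUF2, BUB1 and CDC20. Another 32 fell by 1.2-fold to 1.5-fold and 7 by less than 1.2-fold. Called or not, 39 of the 58 (67.2%) were at least 1.2-fold lower, beside 23.0% of all tested genes. No such share was taken at 1.5-fold itself, so the count of 7 is read as no result about these genes. Bins of 0.1 on the log2 scale give a partial background. From -0.7 to -0.6 lay 6.90% of the 58 and 1.86% of all tested genes. From -0.8 to -0.7 these shares were 0% and 1.23%, and from -0.9 to -0.8 3.45% and 0.815%. Each bin below -0.9 held 0% of the 58 and 0.261% to 1.01% of all tested genes. The median log2 fold change of the 58 genes was -0.35, beside 0.0043 for all tested genes.

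For 43 of the 58 genes all 4 MANIO libraries lay below all 4 DMSO libraries, and for 0 genes all lay above. That arrangement was found in 23.7% of all tested genes downward and 24.7% upward. Against a limit of 1.2-fold (edgeR's glmTreat) 26 of the 58 were still called lower and 0 higher, beside 11.6% and 14.7% of all tested genes. Since 1 unsorted culture gives 1 library, fewer cells in G2 and mitosis and less of each transcript per such cell cannot be told apart. Without DMSO replicate 1, 48 of the 58 genes were called lower and 0 higher. Over all tested genes 8331 were then called in either direction, beside 8574 with all libraries.

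**Figure D1:**
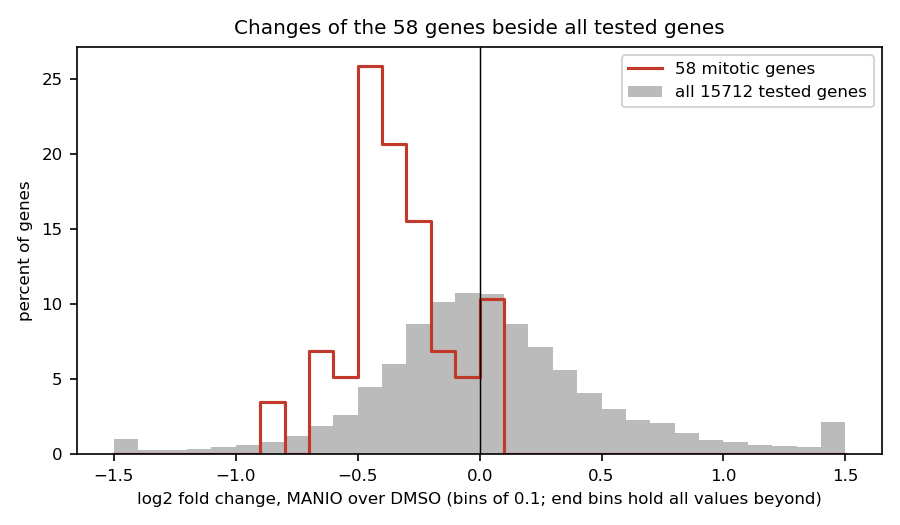
Histogram of log2 fold changes (MANIO over DMSO, horizontal axis) as a percentage of genes (vertical axis), for all 15712 tested genes (grey bars) and the 58 mitotic genes (red line). The 58 genes lie mostly left of 0, with a median of -0.35 and no value above 0.097.

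The promoters of these genes were read because the genes moved together and because a short element, the cell cycle genes homology region (CHR), is known to recruit MuvB complexes to mitotic promoters, often near a CCAAT box, the site of the factor NF-Y. RefSeq sequence on GRCh38.p14, from 250 bases before to 50 after a start site, was matched by symbol for 47 of the 58 genes, in 53 windows because some genes have several starts. BUB3, TTK, KNL1, CENPL, CENPM, BIRC5, UBE2C, AURKA, TPX2, RACGAP1 and FOXM1 had no entry. The CHR was searched as TTTGAA and its variant TTCGAA, the CCAAT box as CCAAT, and E2F sites as TTCCCGC and TTGGCGC, each on both strands. At least 1 CHR or variant stood in 33 of the 53 windows (62.3%), against 16.4% of all 35116 windows in the table and 11.5% of the 15414 windows of the other tested genes. A CCAAT box stood in 37 of the 53 (69.8%), against 34.6% of all windows and 34.5% of those of the other tested genes. The E2F cores were found in 6 (11.3%) and 4 (7.55%) of the 53, against 6.55% and 3.04% of all windows and 9.47% and 4.46% of those of the other tested genes. Counted by gene, 10.6% of the 47 held the first E2F core and 6.38% the second, beside 12.6% and 6.06% of the other tested genes. On the same count 66.0% held a CHR or variant and 68.1% a CCAAT box, beside 15.0% and 43.0%.

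Matches of the CHR lay close to the start. Within 50 bases on either side, a span chosen after the positions were seen, 29 of 53 windows (54.7%) held a CHR or its variant, against 5.01% of all windows. The following stretches run from 160 bases before the start to base 25 after it. Capitals mark the CHR, its variant and the CCAAT box on either strand. Read from the opposite strand the CHR appears as TTCAAA, and the CCAAT box then appears as ATTGG. The elements can share bases, as in MKI67. They were chosen after the values were seen, to set 5 genes that fell (DLGAP5, SPC25, CENPA, CDC20 and MKI67) beside 3 that did not pass the test (ASPM, INCENP and TOP2A).
DLGAP5 (chr14:55191561-55191745, minus strand): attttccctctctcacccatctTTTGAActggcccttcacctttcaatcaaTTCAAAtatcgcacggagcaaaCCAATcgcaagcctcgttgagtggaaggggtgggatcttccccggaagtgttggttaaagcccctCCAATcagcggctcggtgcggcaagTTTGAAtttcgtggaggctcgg
SPC25 (chr2:168890406-168890590, minus strand): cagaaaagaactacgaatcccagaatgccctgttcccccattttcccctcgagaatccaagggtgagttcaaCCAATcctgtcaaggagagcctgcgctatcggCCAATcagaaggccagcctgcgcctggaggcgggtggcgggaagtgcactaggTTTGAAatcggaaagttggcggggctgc
CENPA (chr2:26785896-26786080, plus strand): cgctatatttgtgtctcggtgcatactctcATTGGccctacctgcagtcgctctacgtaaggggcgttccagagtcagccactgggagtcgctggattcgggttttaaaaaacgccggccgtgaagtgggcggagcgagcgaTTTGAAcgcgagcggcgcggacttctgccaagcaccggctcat
CDC20 (chr1:43358821-43359005, plus strand): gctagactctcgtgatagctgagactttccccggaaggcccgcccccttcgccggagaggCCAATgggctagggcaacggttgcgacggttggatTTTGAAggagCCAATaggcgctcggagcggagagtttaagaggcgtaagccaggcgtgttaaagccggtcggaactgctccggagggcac
MKI67 (chr10:128126399-128126583, minus strand): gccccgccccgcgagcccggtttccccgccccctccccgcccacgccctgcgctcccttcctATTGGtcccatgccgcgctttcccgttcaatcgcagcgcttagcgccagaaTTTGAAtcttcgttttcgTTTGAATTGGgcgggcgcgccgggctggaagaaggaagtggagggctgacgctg
ASPM (chr1:197146645-197146829, minus strand): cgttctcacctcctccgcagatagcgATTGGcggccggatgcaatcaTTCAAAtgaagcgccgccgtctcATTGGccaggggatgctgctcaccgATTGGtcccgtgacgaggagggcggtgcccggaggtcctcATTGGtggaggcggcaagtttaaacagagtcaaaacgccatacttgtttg
INCENP (chr11:62123851-62124035, plus strand): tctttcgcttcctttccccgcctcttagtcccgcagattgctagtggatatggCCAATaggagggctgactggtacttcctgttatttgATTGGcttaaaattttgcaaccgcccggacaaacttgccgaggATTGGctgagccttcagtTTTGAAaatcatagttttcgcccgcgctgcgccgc
TOP2A (chr17:40417872-40418056, minus strand): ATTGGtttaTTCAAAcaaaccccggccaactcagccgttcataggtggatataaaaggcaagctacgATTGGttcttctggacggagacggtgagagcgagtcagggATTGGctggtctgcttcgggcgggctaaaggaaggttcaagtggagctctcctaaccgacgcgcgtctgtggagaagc

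Genes with and without the element in these windows fell in like measure, a difference that was not tested. Of 31 genes with a CHR or variant in at least 1 window 25 fell, with a median log2 fold change of -0.38. Of 16 without one 14 fell, with a median of -0.35. Of 23 genes with a CHR or variant and a CCAAT box in the same window 17 fell (median -0.36). Of the other 24 genes 22 fell (median -0.37), a difference also not tested. Among all tested genes 26.8% were called lower. The 6 genes with the element that did not pass the test were ZWINT, INCENP, NUSAP1, ASPM, CKAP5 and TOP2A. A match describes the letters of this window only, and no binding was measured.

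**Figure D2:**
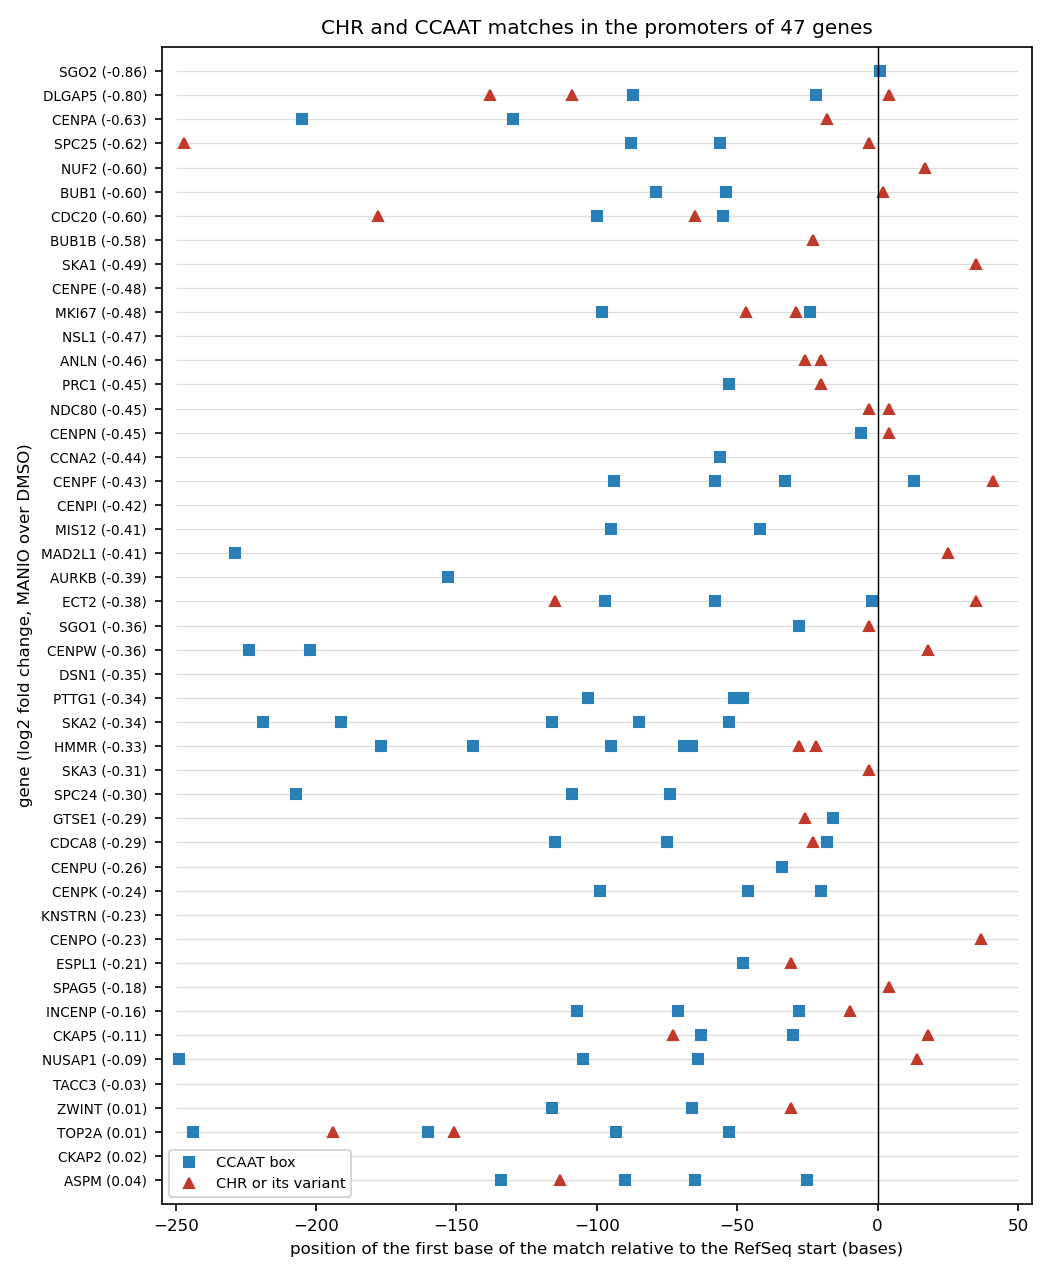
Positions of CHR matches (red triangles, variant included) and CCAAT boxes (blue squares) in the first listed promoter window of 47 genes, in bases from the RefSeq start (horizontal axis), with genes ordered by log2 fold change from SGO2 (-0.86) at the top to ASPM (0.036) at the bottom. Genes with and without the CHR are found along the whole order.

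Of the 5 checkpoint genes, which hold back anaphase until kinetochores are attached, 4 fell. Among all tested genes 26.8% were called lower, and in 23.7% all 4 MANIO libraries lay below all 4 DMSO libraries. These shares stand beside the counts and the separate groups of each role below. BUB1, a kinase that recruits the other checkpoint proteins, measured 169, 176, 163 and 162 CPM in DMSO replicates 1 to 4 and 105, 115, 104 and 117 CPM in MANIO replicates 1 to 4. BUB1B, which encodes the checkpoint protein BUBR1, stood at 141, 147, 152 and 139 CPM in DMSO and 92.9, 94.9, 94.1 and 104 CPM in MANIO. TTK, the kinase that starts checkpoint signalling, was at 111, 113, 106 and 106 CPM in DMSO and 69.3, 79.0, 69.5 and 87.5 CPM in MANIO. For these 3 genes every MANIO library was below every DMSO library. Their log2 fold changes were -0.60 (SE 0.0556), -0.58 (SE 0.0549) and -0.51 (SE 0.0705), with edgeR adjusted p of 3.8e-07, 4.9e-07 and 2.2e-05. MAD2L1, the inhibitor of CDC20, fell from 178 ± 10.6 to 134 ± 15.9 CPM (-0.41). BUB3, the partner that anchors BUB1 and BUBR1, went the other way in value without passing the test, at 300.0 ± 9.85 and 321 ± 14.2 CPM (0.097, 95% confidence interval -0.013 to 0.21; edgeR adjusted p = 0.126). With libraries scaled to total counts alone, BUB3 was called higher (0.13, adjusted p = 0.0302).

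Of 12 genes of the outer kinetochore, the layer that touches microtubules, 11 fell, beside 26.8% of all tested genes. All 4 genes of the NDC80 complex, the main microtubule grip, all 3 listed genes of the MIS12 complex, which links it to the centromere, and all 3 genes of the SKA complex, which steadies the grip, were called lower. SPC25 measured 35.1, 34.8, 37.2 and 35.7 CPM in DMSO and 22.6, 23.1, 23.0 and 24.2 CPM in MANIO. NUF2 measured 71.7, 62.3, 67.5 and 67.5 CPM in DMSO and 41.7, 43.0, 41.6 and 50.8 CPM in MANIO, and SKA1 42.1, 42.0, 41.8 and 38.2 CPM against 29.1, 29.4, 27.4 and 30.7 CPM. No MANIO library reached the lowest DMSO library in any of the 3. Their log2 fold changes were -0.62 (SE 0.0561), -0.60 (SE 0.0705) and -0.49 (SE 0.0597), with edgeR adjusted p of 3.2e-07, 4.5e-06 and 6.3e-06.

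Within the NDC80 complex, NDC80 itself fell by 0.45 on the log2 scale and SPC24, the direct partner of SPC25, by 0.30. NSL1, MIS12 and DSN1 of the MIS12 complex fell by 0.47, 0.41 and 0.35 on that scale, and SKA2 and SKA3 by 0.34 and 0.31. KNL1, the scaffold for checkpoint proteins, went from 87.9 ± 4.89 to 70.8 ± 5.27 CPM (-0.31). ZWINT, which binds KNL1, measured 109, 110, 120 and 108 CPM in DMSO and 103, 115, 113 and 118 CPM in MANIO, so the groups overlapped (0.0053, 95% confidence interval -0.12 to 0.13; edgeR adjusted p = 0.944).

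At the centromere 9 of 11 genes fell, beside 26.8% of all tested genes. CENPA, the histone H3 variant that marks the site, measured 21.4, 22.5, 24.9 and 25.4 CPM in DMSO and 13.9, 15.1, 15.0 and 16.7 CPM in MANIO. CENPN, which reads CENPA nucleosomes, measured 69.97, 71.1, 61.9 and 61.0 CPM in DMSO and 48.0, 51.3, 45.4 and 48.6 CPM in MANIO. CENPF, a large protein of the outer plate and nuclear envelope, measured 386, 361, 328 and 322 CPM in DMSO and 266, 272, 232 and 262 CPM in MANIO. None of the 3 overlapped between groups, and in CENPF DMSO replicates 1 and 2 were the higher ones. Their log2 fold changes were -0.63 (SE 0.0765), -0.45 (SE 0.0650) and -0.43 (SE 0.0675), with edgeR adjusted p of 6.1e-06, 3.6e-05 and 6.9e-05. CENPE, a kinesin motor that brings chromosomes to the spindle equator, fell by 0.48 on the log2 scale.

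The other centromere genes belong to the constitutive network that stays on CENPA chromatin. CENPI fell by 0.42 on the log2 scale, CENPW by 0.36, CENPU by 0.26, CENPK by 0.24 and CENPO by 0.23. The call for CENPK was not firm, since its groups overlapped (20.9 to 23.6 CPM in DMSO, 16.3 to 21.9 CPM in MANIO). Its adjusted p of 0.0289 became 0.0877 without DMSO replicate 3, 0.0528 without DMSO replicate 4, 0.102 without MANIO replicate 1, 0.0859 without MANIO replicate 3 and 0.0752 with total-count scaling. CENPM stood at 19.1 ± 2.48 and 16.8 ± 1.74 CPM (-0.19, 95% confidence interval -0.39 to 0.013; edgeR adjusted p = 0.105). It was called lower without DMSO replicate 1 (adjusted p = 0.0470), without MANIO replicate 2 (0.0387) or with no filter on low counts (0.036). CENPL, the partner of CENPN, stood at 17.4 ± 0.655 and 17.0 ± 1.32 CPM (-0.033, 95% confidence interval -0.18 to 0.12; edgeR adjusted p = 0.718).

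Both shugoshin genes, whose proteins protect cohesin at centromeres, fell, SGO2 furthest of all 58. SGO2 measured 82.0, 80.4, 74.0 and 73.6 CPM in DMSO and 40.0, 46.1, 36.5 and 48.7 CPM in MANIO, a 1.81-fold fall. SGO1 measured 25.9, 24.2, 25.5 and 25.5 CPM in DMSO and 19.7, 19.6, 19.0 and 20.7 CPM in MANIO. In both genes the 4 MANIO libraries were the 4 lowest. Log2 fold changes were -0.86 (SE 0.0806) for SGO2 and -0.36 (SE 0.0590) for SGO1 (edgeR adjusted p = 4.9e-07 and 1.2e-04). Their 95% confidence intervals, -1.03 to -0.68 and -0.48 to -0.23, did not meet, and the difference between the genes was not tested.

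Of the 4 genes of the chromosomal passenger complex, which corrects faulty attachments and later guides cleavage, 3 fell, beside 26.8% of all tested genes. BIRC5, the gene of survivin, measured 224, 233, 230 and 220 CPM in DMSO and 164, 170, 160 and 163 CPM in MANIO (-0.46, SE 0.0474; edgeR adjusted p = 1.2e-06). AURKB, the kinase of the complex, fell from 83.8 ± 7.64 to 64.0 ± 2.05 CPM (-0.39). CDCA8, the gene of borealin, lay at 89.3 to 103 CPM in DMSO and 76.3 to 81.5 CPM in MANIO (-0.29). INCENP, the scaffold, measured 68.9, 92.5, 85.2 and 83.8 CPM in DMSO and 76.3, 76.3, 74.8 and 69.4 CPM in MANIO. DMSO replicate 1 was the lowest of all 8 libraries, and the test did not pass (-0.16, 95% confidence interval -0.32 to 0.0053; edgeR adjusted p = 0.0939). Without that library INCENP was called lower (-0.23, adjusted p = 0.00275). With all libraries and no filter on low counts it was also called lower (-0.17, adjusted p = 0.0273).

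Among the 4 anaphase genes, CDC20 fell furthest. It activates the anaphase-promoting complex and measured 272, 348, 326 and 293 CPM in DMSO and 211, 218, 202 and 188 CPM in MANIO (-0.60, SE 0.0735; edgeR adjusted p = 7.5e-06). PTTG1, the gene of securin, which holds separase inactive, measured 115, 119, 115 and 104 CPM in DMSO and 90.5, 90.5, 87.3 and 88.9 CPM in MANIO (-0.34, SE 0.0529; edgeR adjusted p = 6.2e-05). In both, the groups were apart.

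ESPL1, the gene of separase, the protease that cuts cohesin, measured 86.0, 111, 103 and 97.6 CPM in DMSO and 86.8, 94.3, 82.0 and 80.4 CPM in MANIO (-0.21, SE 0.0744; edgeR adjusted p = 0.0248). The groups overlapped through DMSO replicate 1, and the call was lost without DMSO replicate 2 (adjusted p = 0.0862), DMSO replicate 3 (0.0682), MANIO replicate 3 (0.0693) or MANIO replicate 4 (0.0607), and with total-count scaling (0.0780). UBE2C, the ubiquitin-conjugating enzyme that works with the anaphase-promoting complex, measured 112, 137, 132 and 124 CPM in DMSO and 128, 136, 128 and 121 CPM in MANIO. Its groups lay within each other (0.018, 95% confidence interval -0.12 to 0.15; edgeR adjusted p = 0.828).

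Of 12 spindle genes 7 fell and 5 did not pass the test, where 26.8% of all tested genes were called lower. DLGAP5, which stabilises kinetochore fibres, measured 147, 140, 138 and 133 CPM in DMSO and 76.6, 83.4, 72.5 and 87.7 CPM in MANIO, a 1.74-fold fall. AURKA, the kinase that builds spindle poles, measured 103, 111, 111 and 96.7 CPM in DMSO and 74.6, 77.6, 76.3 and 74.9 CPM in MANIO. TPX2, its activator, measured 306, 329, 304 and 293 CPM in DMSO and 261, 260, 239 and 246 CPM in MANIO. The groups did not overlap in any of the 3. Log2 fold changes were -0.80 (SE 0.0630), -0.47 (SE 0.0558) and -0.29 (SE 0.0537), with edgeR adjusted p of 7.4e-08, 4.8e-06 and 3.0e-04. HMMR, a spindle assembly factor, fell by 0.33 on the log2 scale, and GTSE1, a microtubule-binding protein that also restrains p53, by 0.29. KNSTRN fell by 0.23 and SPAG5, its partner astrin, by 0.18.

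The 5 spindle genes that did not pass were CKAP5, NUSAP1, TACC3, CKAP2 and ASPM. ASPM, which focuses spindle poles, measured 112, 107, 96.4 and 99.6 CPM in DMSO and 99.7, 109, 99.4 and 117 CPM in MANIO (0.036, 95% confidence interval -0.10 to 0.18; edgeR adjusted p = 0.672). CKAP2 stood at 134 ± 4.13 and 136 ± 11.1 CPM (0.015, -0.11 to 0.14) and TACC3, a clathrin-bound spindle protein, at 164 ± 15.5 and 160 ± 6.02 CPM (-0.030, -0.17 to 0.11). For these 3 genes the intervals leave out a fall as large as the median of the 58, -0.35. CKAP5, a microtubule polymerase, stood at 360 ± 17.8 and 333 ± 12.1 CPM (-0.11, 95% confidence interval -0.22 to 0.0035) and was called lower without DMSO replicate 4 (adjusted p = 0.0477). NUSAP1, which bundles spindle microtubules, stood at 209 ± 8.40 and 196 ± 14.0 CPM (-0.094, 95% confidence interval -0.22 to 0.029) and was called lower without MANIO replicate 4 (adjusted p = 0.0300).

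All 4 cytokinesis genes fell, by like amounts, where 26.8% of all tested genes were called lower. PRC1, which bundles the microtubules of the spindle midzone, measured 232, 247, 233 and 227 CPM in DMSO and 174, 174, 166 and 172 CPM in MANIO. ANLN, the gene of anillin, a scaffold of the cleavage furrow, measured 277, 279, 265 and 257 CPM in DMSO and 190, 207, 179 and 208 CPM in MANIO. RACGAP1, a centralspindlin subunit, measured 204, 198, 189 and 175 CPM in DMSO and 153, 154, 133 and 147 CPM in MANIO. In each gene the groups were apart. Log2 fold changes were -0.45 (SE 0.0488), -0.46 (SE 0.0577) and -0.38 (SE 0.0621), with edgeR adjusted p of 2.0e-06, 9.1e-06 and 1.0e-04. ECT2, which RACGAP1 recruits to switch on RHOA, fell by 0.38.

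**Figure D3:**
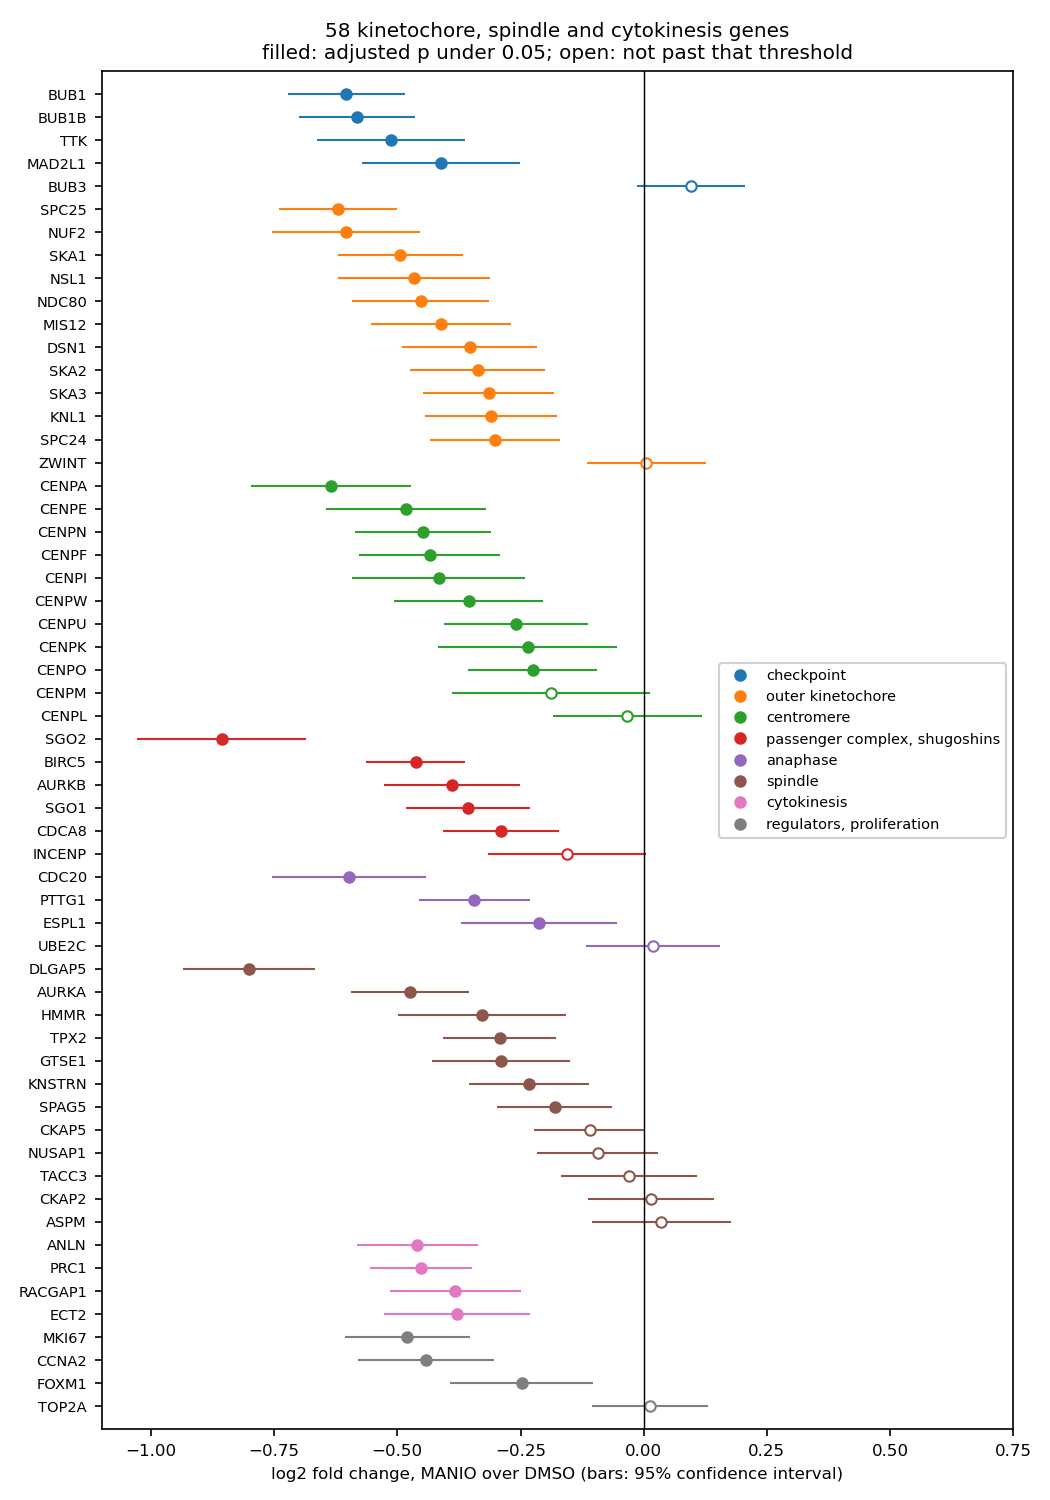
Log2 fold change (MANIO over DMSO, horizontal axis) with its 95% confidence interval for each of the 58 genes, coloured by role. Filled points passed the test (46 genes, all left of 0) and open points did not (12 genes, of which 5 are spindle genes).

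The last 4 genes are regulators and proliferation markers. MKI67, the gene of the Ki-67 antigen that coats mitotic chromosomes, measured 679, 739, 668 and 649 CPM in DMSO and 506, 522, 462 and 472 CPM in MANIO. CCNA2, the cyclin of S phase and G2, measured 142, 152, 159 and 148 CPM in DMSO and 104, 119, 101 and 119 CPM in MANIO. FOXM1, a transcription factor of mitotic genes, measured 102, 126, 119 and 108 CPM in DMSO and 96.0, 104, 94.3 and 89.1 CPM in MANIO. The groups were apart for MKI67 and CCNA2 and overlapped for FOXM1 through MANIO replicate 2 and DMSO replicate 1. Log2 fold changes were -0.48 (SE 0.0592), -0.44 (SE 0.0645) and -0.25 (SE 0.0681), with edgeR adjusted p of 7.7e-06, 3.9e-05 and 0.00624. TOP2A, the topoisomerase that untangles chromosomes and a usual companion of MKI67 among proliferation markers, measured 332, 323, 309 and 308 CPM in DMSO and 313, 331, 299 and 341 CPM in MANIO. It did not pass (0.013, 95% confidence interval -0.10 to 0.13; edgeR adjusted p = 0.863), and its interval did not meet that of MKI67 (-0.61 to -0.35). The difference between TOP2A and MKI67 was not tested.

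**Figure D4:**
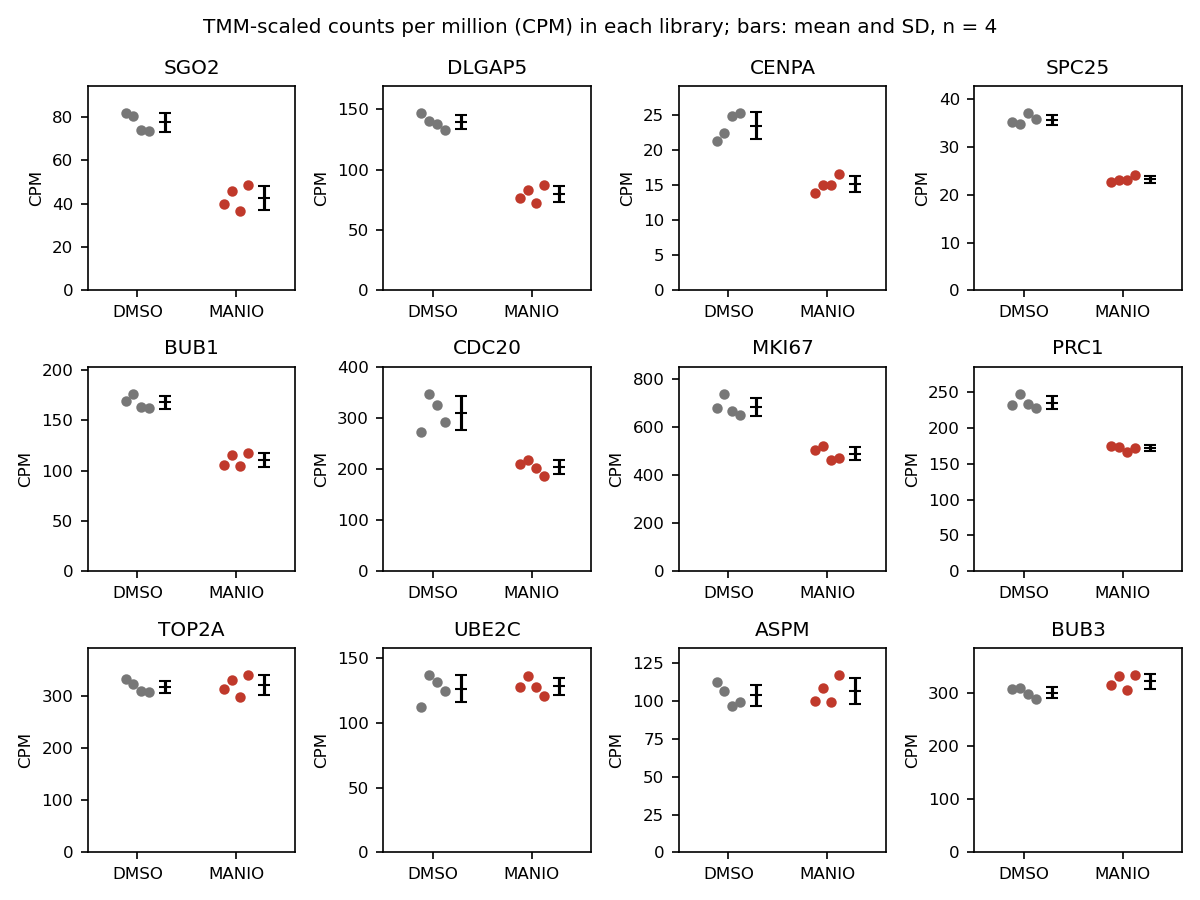
CPM (vertical axes, each from 0) in each of the 4 DMSO (grey) and 4 MANIO (red) libraries for 12 of the genes, with mean and SD beside the points. SGO2, DLGAP5, CENPA, SPC25, BUB1, CDC20, MKI67 and PRC1 have separate groups, while TOP2A, UBE2C, ASPM and BUB3 overlap.

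The 58 genes together took 0.762 ± 0.0243% of all counts in DMSO and 0.629 ± 0.0262% in MANIO (SD, n = 4 each), a sum led by genes of high count. By library this share was 0.739, 0.794, 0.765 and 0.747% in DMSO and 0.617, 0.651, 0.598 and 0.650% in MANIO, so the groups were apart. Relative to its own DMSO mean, the median gene stood at 0.020, 0.048, 0.0051 and -0.059 on the log2 scale in DMSO replicates 1 to 4, and at -0.39, -0.31, -0.44 and -0.31 in MANIO replicates 1 to 4. MANIO replicate 3 held the lowest value of its group for 34 genes and MANIO replicate 4 the highest for 31. In DMSO, replicate 4 was lowest for 31 genes and replicate 2 highest for 29, while replicate 1 was lowest for 17 and highest for 18. The coefficient of variation over the 4 libraries of a group had a median of 5.63% in DMSO and 6.36% in MANIO.

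**Figure D5:**
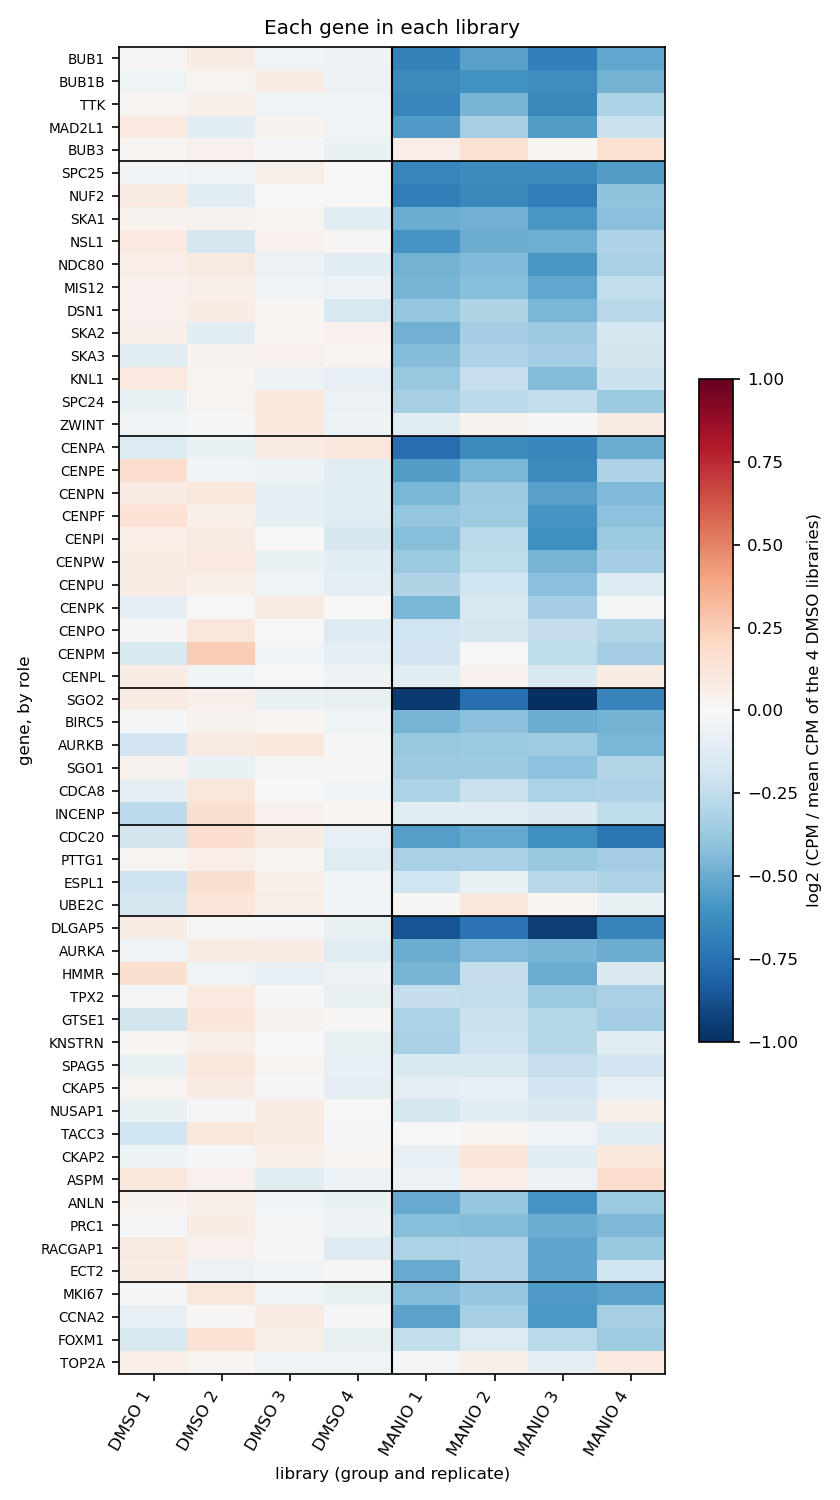
Heat map of 58 genes (rows, by role) in 8 libraries (columns), coloured by log2 of CPM over the mean of the 4 DMSO libraries. Blue fills most of the 4 MANIO columns, where the median gene stood at -0.44 to -0.31, and pale rows such as TOP2A, UBE2C and ASPM cross it.

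Levels differ widely among these genes. Per kilobase of merged exons, CDC20 was the most abundant in DMSO at 152 CPM per kb, followed by UBE2C (98.3), TPX2 (85.4), NUSAP1 (72.7) and BIRC5 (59.4), and the least abundant were CENPL (3.54), CENPI (4.60) and CENPK (5.17). In MANIO the level of CDC20 was 100.5 CPM per kb, beside 99.5 for UBE2C. Across the 58 genes, which share libraries and are not independent, the log2 fold change had a Spearman correlation of -0.013 with the DMSO level per kb and of -0.29 with the genomic span of the gene. The 29 genes of shorter span (up to 29.2 kb) had a median log2 fold change of -0.30, with 21 called lower. The 29 of longer span had -0.43, with 25 called lower, beside 26.8% of all tested genes.

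Exons of 9 of the 58 genes overlap those of another gene by at least 10% of their bases. The library kit does not mark strand, so the counts of these genes may include reads of a neighbour or lack shared reads. Their levels per kb may be off for the same reason. The 9 genes are NUSAP1 (62.2%), PRC1 (58.4%), CENPO (31.4%), CENPN (22.8%), SGO1 (17.7%), FOXM1 (15.9%), SPAG5 (15.9%), CENPU (11.7%) and BUB1B (10.2%). On GRCh38, SGO2 (ENSG00000163535) spans chromosome 2 from 200510008 to 200583782, DLGAP5 (ENSG00000126787) chromosome 14 from 55148112 to 55191678, and TOP2A (ENSG00000131747) chromosome 17 from 40388516 to 40417950. Counts were made over whole genes and do not separate transcript forms.

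Beyond the 58, 124 other genes of mitosis and its control were tested from 7 lists, also chosen with earlier results of these data known. Of these genes 71 fell and 12 rose, where 26.8% of all tested genes were called lower and 27.8% higher. The other 41 did not pass, and the median over the 124 was -0.22 on the log2 scale. Of 25 other kinetochore genes 17 fell, among them the centromere genes CENPH (-0.70) and ITGB3BP (-0.65), and 1 rose, CENPT (0.38), which ties the centromere to the NDC80 complex. Of 13 mitotic kinesins 11 fell and 0 rose, the former including KIF15 (-0.90) and KIFC1 (-0.56). The list of 12 mitotic entry genes also held GMNN, a regulator of DNA replication. Of the 12, 9 fell, among them PLK1 (-0.62) and the cyclin gene CCNB1 (-0.45), and 1 rose, the kinase gene CDK1 (0.22).

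In the other 4 lists the falls made up a smaller part. Median log2 fold changes were -0.18 for the spindle list, -0.21 for the anaphase-promoting complex list and -0.11 for the cytokinesis list. Of 25 other spindle genes 13 fell, with TUBGCP3 of the gamma-tubulin complex at -0.63 and PSRC1 at -0.66, and 2 rose, TUBGCP6 (0.45) and the spindle pole gene NUMA1 (0.16). Of 17 genes of the anaphase-promoting complex and its partners 8 fell, among them ANAPC15 (-0.91) and the inhibitor FBXO5 (-0.49). The 4 that rose, named after their values were seen, were ANAPC13 (0.32), ANAPC2 (0.21), ANAPC5 (0.18) and CDC16 (0.13). Beside the 27.8% of all tested genes called higher, these 4 of 17 are no result about the group. Of 19 other cytokinesis genes 8 fell, among them RHOA (-0.40) and CEP55 (-0.39), and 3 rose, ARHGEF2 (0.18), CHMP3 (0.22) and CHMP4A (0.45). Of the 8 falls 5 were smaller than 1.2-fold, and in 10 of the 19 genes the groups overlapped. The last list held 13 genes, those of the MuvB complexes, their E2F and pocket protein partners, and the kinase DYRK1A. Of these 5 fell, among them LIN52 (-0.67) and RBL1 (-0.64), 1 rose, TFDP2 (0.31), and 7 did not pass. The list's median was -0.034 on the log2 scale, beside 0.0043 for all tested genes, of which 26.8% were called lower, so its counts are no result about this group.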

How the data were processed

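RNA of 8 cultures was sequenced by the submitters from libraries made with the TruSeq RNA kit, version 2, per the labels' protocols. The authors deposited raw read counts per Ensembl gene. The build GRCh38 and the tools STAR 2.5.3a, HTSeq, FastQC 1.3 and DESeq2 appear without roles in the submitters' processing notes. The annotation release and strand setting of the authors were not given in the sources used here.

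Genes kept by filterByExpr (15712) were scaled by TMM and tested by edgeR 4.0.16 in R 4.3.3 (glmQLFit with robust estimation and glmQLFTest, the quasi-likelihood test, group as the only term; limma 3.58.1 was loaded with it), with Benjamini-Hochberg adjustment over all of them and calls at an adjusted p under 0.05. Log2 fold changes are MANIO over DMSO, each SE is the fold change over the root of its F, and CPM were computed on TMM library sizes. Spans, exon lengths and overlaps come from GENCODE 29. Alternatives were other scalings, no filter, DESeq2 1.42.0, a replicate block, a 1.2-fold limit and leaving out each library. The procedure was also run on simulated counts in which far fewer genes changed than were called in the data. It recovered 28% of the 1.2-fold and 70.8% of the 1.5-fold changes there, with 8 false calls among 150. These rates need not hold for the data.

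Within each role the 3 genes with the smallest p are given by library, and genes that did not pass are named. From each list of other genes the 2 with the smallest p are named, with those that rose where these were 3 or fewer. The genes, lists and motifs were chosen with earlier results of these data known. Replicates are cultures labelled biological. If they are not independent, p-values measure only the spread between these samples. Libraries of a group differed by at least 3.60 times the sampling noise, so none was a copy.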

Additional observations from a re-analysis of the deposited data

Results flagged for a closer look

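For each of the 58 genes the 4 libraries of a group were searched for a single value far from the other 3 (Dixon's test at 95%). In 116 such groups 6 were found, where chance gives about 1 in 20. The kinetochore gene SKA1 was low in DMSO replicate 4, at 38.2 CPM against 41.8 to 42.1 in the others. SKA2 was low in DMSO replicate 2, at 102 CPM against 112 to 114, and SKA3 in DMSO replicate 1, at 63.5 CPM against 69.8 to 70.8. NUF2 was high in MANIO replicate 4, at 50.8 CPM against 41.6 to 43.0, and the borealin gene CDCA8 in MANIO replicate 2, at 81.5 CPM against 76.3 to 76.6. CKAP5 was low in MANIO replicate 3, at 315 CPM against 339 to 340. The 6 values lie in 6 different libraries, and SKA1, SKA2, SKA3, NUF2 and CDCA8 kept separate groups.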

How the results depend on the processing

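The count of 46 genes called lower was 46 with RLE scaling, upper-quartile scaling and DESeq2, 44 with total-count scaling and 48 without a filter on low counts, and 44 to 48 when 1 library was left out. Calls over all tested genes, in either direction, were 8572 with RLE scaling, 8574 with upper-quartile scaling and 8225 with DESeq2. They were 8505 with total-count scaling and 9241 without a filter on low counts. With 1 library left out, they ran from 7818 to 8622, beside 8574 with all libraries. None of the 58 was called higher, except BUB3 with total-count scaling (1 gene). Of the 46, 44 were called lower under every alternative but the 1.2-fold limit, and the others were CENPK and ESPL1. By construction the 1.2-fold limit called fewer genes, 26 of the 58, 4132 of all tested genes, and 36 lower and 1 higher of the other mitotic genes. The median log2 fold change of the 58 ran from -0.38 to -0.32 over the alternatives. In the shorter promoter window (100 bases before the start to 50 after) the second E2F core was found in 1 gene instead of 3. With the replicate number as a block 47 of the 58 genes were called lower, 0 higher and 8845 genes in all, the added one being CENPM (adjusted p = 0.0307). Deviations of same-numbered libraries correlated at 0.038 to 0.16, and 2 of 8 libraries correlated best with their own number. Such weak correlations do not settle whether same-numbered samples were handled together. With 4 libraries a group, small changes can be missed.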
